A study of Drosophila melanogaster with 212 samples.

Results

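Reads of 7 genes that mark glia in the fly brain were followed through single cells sorted as octopaminergic/tyraminergic neurons. The genes were repo, alrm, Gs2, Eaat1, moody, nrv2 and Gat, found by symbol among the 17104 genes of the deposited table, and all 7 were listed. They were followed to see which were read only where other glial genes were read and which were read in all wells with Tdc2, the tyrosine decarboxylase gene of these neurons.

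The cells came from brains of wild-type and nervy-mutant Drosophila melanogaster of both sexes, kept in vials of 15 flies to day 6, and each cell was labelled as carrying GFP on its membrane and as having a well of its own. The 4 groups were mutant females, wild-type females, mutant males and wild-type males. The labels named neither the nervy allele nor the driver of the reporter, and all groups carried the reporter. They named no animal either, so each group was 1 sample, no test between groups was possible, and every interval below is at 95% and covers counting error only.

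Glia are the non-neuronal cells of the nervous system. In the fly brain astrocyte-like glia enter the synaptic neuropil and take up transmitter, cortex glia wrap neuronal cell bodies, ensheathing glia bound the neuropil, and perineurial and subperineurial glia form the blood-brain barrier. The homeodomain factor encoded by repo is the standard nuclear marker of nearly all of these types except midline glia. Of the other 6 genes, alrm encodes a leucine-rich repeat protein, and the rest encode proteins of glial transport, metabolism or barrier function.

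The table held 54 columns of mutant females, 51 of wild-type females, 56 of mutant males and 51 of wild-type males. Of these, 13 were left out for low depth or few genes, and near-identical columns of 1 group were averaged, which left 50, 48, 49 and 42 wells in that order. Total counts per well ran from 20875 to 3045780. Levels are CPM, counts scaled to the total of a well, or to the summed total where wells were summed. A well was called Tdc2-positive at 100 CPM of Tdc2 or more, which 175 wells reached. The other 14 wells, called Tdc2-low here, went against the labelled cell type, since their highest Tdc2 level was 77.7 CPM and their median Vmat level, the vesicular monoamine transporter, was 198.8 CPM against 90236 CPM in Tdc2-positive wells. Some results below rest on these wells, and for several of them values without these wells are also given.

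Some columns held nearly the same profile. Near-identical columns numbered 19 pairs, and 9 of the pairs joined a mutant column with a wild-type column of the same sex, 1 pair in females and 8 in males. Such wells stayed in both genotypes, so the same profile counts on both sides of a mutant and wild-type comparison, and the files do not say which genotype such a profile came from. Values without all wells of pairs are given beside the genotype and male results.

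None of the 7 genes was read in all Tdc2-positive wells. For shares of wells each well was thinned to 190000 reads, which left out 14 of the 175 as too shallow. In the rest, 0 of the 7 had a read in 90% of wells or more. Over all listed genes 11.7% reached that share. Gs2 was read in 60.2% of wells (97 wells, interval 52.2 to 67.9) and nrv2 in 59% (95 wells, 51.0 to 66.7). The other 5 members were read in fewer than 50%: alrm in 26.1% (19.5 to 33.6), Eaat1 in 24.2% (17.8 to 31.6), Gat in 19.9% (14 to 26.9), repo in 12.4% (7.76 to 18.5) and moody in 3.11% (1.02 to 7.10). Of all 17104 listed genes 11807 were also read in fewer than 50% of wells, so these classes alone do not set the members apart. Gs2 and nrv2 had overlapping intervals, as had alrm, Eaat1 and Gat among themselves. Without thinning, the shares of the 175 wells were 67.4% for Gs2, 60.6% for nrv2, 28% for alrm, 25.7% for Eaat1, 20.6% for Gat, 20.0% for repo and 4.57% for moody.

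**Figure D1:**
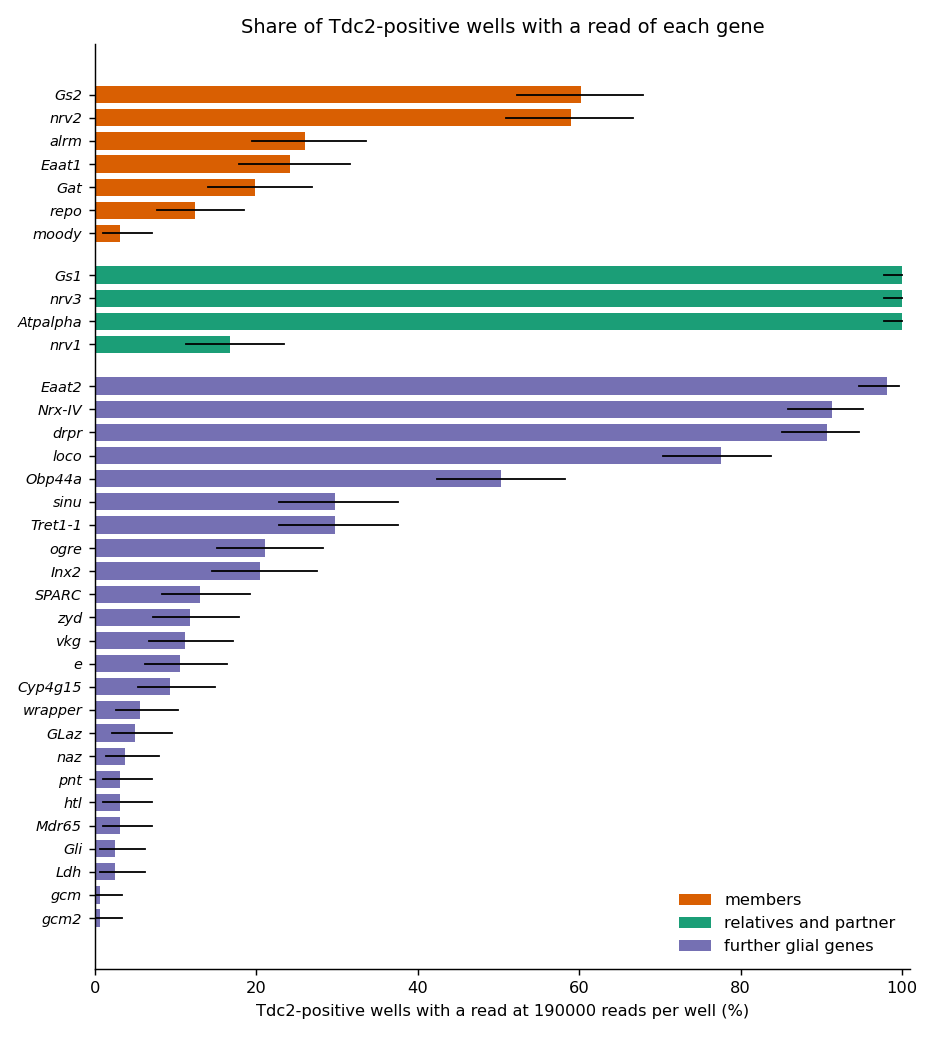
Share of Tdc2-positive wells with at least 1 read of each gene after thinning to 190000 reads per well, with exact binomial intervals as lines, for the 7 members, relatives or a partner of members, and further glial genes. Gs2 and nrv2 stand near 60%, the other members lie below 27%, and the relatives Gs1 and nrv3 and the partner Atpalpha were read in every well.

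Members differed from their closest relatives in the same wells. Gs2, glutamine synthetase 2, is the enzyme with which glia turn glutamate into glutamine, and its relative Gs1 was read in 100% of Tdc2-positive wells at 190000 reads. The gene nrv2 encodes a beta subunit of the Na,K-ATPase, and its relative nrv3, a beta subunit used by neurons, was read in 100%, as was Atpalpha, the catalytic subunit. The beta subunit gene nrv1, which lies next to nrv2 on chromosome 2L, was read in 16.8% of wells (interval 11.4 to 23.5). Eaat1 and Eaat2 encode transporters that take up glutamate or related amino acids, and Eaat2 was read in 98.1% of wells against 24.2% for Eaat1. On the scale of CPM per kilobase of exon, the summed level in Tdc2-positive wells was 1124 for nrv3 and 80.3 for nrv2, 179 for Gs1 and 530 for Gs2, and 133.8 for Eaat2 and 35.8 for Eaat1. The Gs2 sum rested on a few wells: the median well held 32.9 CPM per kilobase of Gs2.

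Exons of the members on dm6 overlapped other annotated genes in 2 cases. For repo (FBgn0011701, 3R from 18236192 to 18239602), 6.11% of exon bases were shared with CG7156. For Gat (FBgn0039915, 4 from 629691 to 635350), 9.98% were shared with an INE-1 transposable element. The other 5 shared no exon base with another gene: alrm (FBgn0039332, 3R from 25381065 to 25382781), Gs2 (FBgn0001145, X from 11423957 to 11430197), Eaat1 (FBgn0026439, 2L from 9333567 to 9341925), moody (FBgn0025631, X from 2044292 to 2050120) and nrv2 (FBgn0015777, 2L from 6789770 to 6798862). Whether counting used strand, and how reads that match several places were treated, was not stated.

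The fate factor repo was the most confined of the members after moody. Its level was 0 in the median well of each group, and 42 wells held any repo read. A level of 10 CPM was used to call a repo well, and 16 wells reached it. The nearest wells on both sides of that level held 8.55 and 10.3 CPM, with the next at 8.07 and 19.5 CPM. Among the 16 repo wells the level ran from 10.3 to 1124 CPM with a median of 61.3 CPM. The highest, wild-type male D7, held 35.4% of all repo reads. In 26 wells repo was read below the level.

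Only 9 of the 16 repo wells were Tdc2-positive, and 7 were Tdc2-low. The 9 wells thus held reads of the neuronal enzyme and of the glial factor together, although the labels give 1 cell a well. Wild-type female B8 had 22.7 CPM of repo beside 12451 CPM of Tdc2 and 58649 CPM of Vmat. Wild-type male D7 had 1124 CPM of repo beside 223.2 CPM of Tdc2. Summed over wells, Tdc2 was at 2275 CPM in repo wells and 5477 CPM in the other 173 wells, Vmat at 31802 against 91677 CPM, and the synaptic vesicle gene nSyb at 2032 against 3222 CPM. The neuronal RNA-binding gene elav was at 216.6 CPM in repo wells and 219.6 CPM elsewhere. Median totals were 705708 counts in repo wells and 897484 counts in the others. Doublets were not called, and whether these wells held RNA of more than 1 cell was not tested.

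The other 6 members were all at least 4-fold higher in repo wells than in the other wells, summed. Among the 5585 genes that averaged 20 CPM or more across groups, 2.63% were, and the median log2 ratio was -0.09 over those genes and 4.21 over the 6 members. Ratios are of CPM plus 1. Of the 6, moody lay under 20 CPM, and the other 5 had a median of 4.07. Over Tdc2-positive wells alone, of which 9 were repo wells, the log2 ratios ran from 2.55 for moody to 5.69 for Eaat1. Over wells with the title letter B alone, Gs2 had 1.55 and was no longer 4-fold higher.

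Gs2 was read in all 16 repo wells, at a lowest, median and highest level of 97.5, 4850 and 89272 CPM. In the other 173 wells it was at 0, 65.2 and 70940 CPM, so the ranges overlapped. The log2 ratio of the sums was 3.67. Like Gs2, nrv2 was read in all 16, at 143.7, 2479 and 16168 CPM, against 0, 37.1 and 7845 CPM elsewhere, with a log2 ratio of 4.34. These were the members read in every repo well, and elsewhere their medians were above 0.

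Among the transporters, Eaat1 was read in 15 of 16 repo wells at 0, 561 and 11714 CPM, and in 43 of 173 others with a median of 0 and a highest value of 6975 CPM (log2 ratio 4.76). Gat, the GABA transporter of astrocyte-like glia, was read in 14 repo wells at 0, 618 and 5684 CPM, and in 35 others with a highest value of 5400 CPM (4.07). The leucine-rich repeat gene alrm, whose promoter is the usual astrocyte driver, was read in 15 repo wells at 0, 447 and 8027 CPM and in 46 others, the highest of which, at 8205 CPM, exceeded every repo well (3.96). For all 3 the median was above 400 CPM in repo wells and 0 elsewhere, while single wells elsewhere reached 6975, 5400 and 8205 CPM.

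The G protein-coupled receptor gene moody acts in subperineurial glia to seal the blood-brain barrier. It was read in 14 wells in all, 6 repo wells and 8 others. Its highest levels were 400 CPM in wild-type female D1, 232.8 CPM in mutant male D16 and 116.3 CPM in wild-type male B31, all Tdc2-low wells. No Tdc2-positive well exceeded 61.6 CPM. The log2 ratio of sums was 4.81, but 52.8% of all moody reads lay in 1 well.

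**Figure D2:**
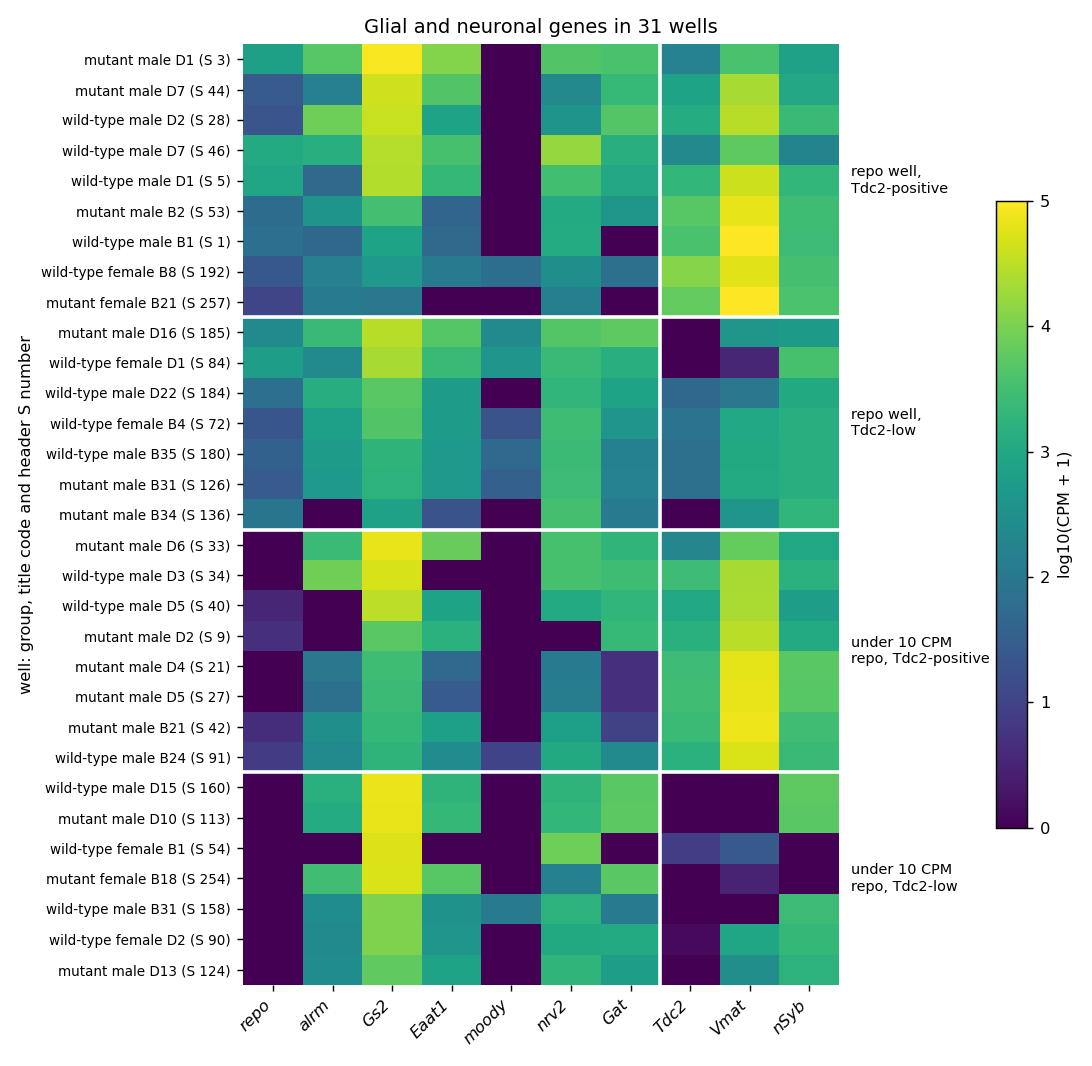
Level, as log10(CPM + 1), of the 7 members and 3 neuronal genes in the 31 wells that held at least 10 CPM of repo, at least 1000 CPM of Gs2 or less than 100 CPM of Tdc2, ordered by these classes and by Gs2. Gs2 is present in every well and nrv2 in all but mutant male D2. In the lower 15 wells repo is absent or below 10 CPM. In the Tdc2-positive wells Tdc2 and Vmat are read beside glial genes at widely differing levels. Mutant male D1 has 162.99 CPM of Tdc2 and 3677 CPM of Vmat, and wild-type female B8 has 12451 and 58649 CPM. Tdc2-positive repo wells had medians of 2051 CPM of Tdc2 and 41421 CPM of Vmat. Over all Tdc2-positive wells the medians were 5371 and 90236 CPM.

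No member had all of its reads in repo wells. The 16 wells were chosen by repo, so their 97.2% of repo reads follows from that choice. Of the other members they held 76.6% of moody reads, 64.5% of Eaat1, 57.2% of nrv2, 53% of Gat, 51.0% of alrm and 45.6% of Gs2. Gs2 was the member with the largest share outside, and its high levels were also found below the repo level. Of 27 wells with at least 1000 CPM of Gs2, 12 were repo wells and 15 were not. Those 15 were made up of 8 Tdc2-positive and 7 Tdc2-low wells, and 4 of the 15 held some repo read below 10 CPM. In them alrm reached 100 CPM in 10 wells, Eaat1 and Gat in 11 each and nrv2 in 14, while moody was read in 2. Few genes had a read in mutant female B18 (578), wild-type female B1 (763), mutant male D10 (814) and wild-type male D15 (810). The median of repo wells was 6027.5 genes, so a missing repo read in those wells does not show that repo was absent. D10 and D15 are near-identical and count separately among the 15.

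Single wells show how the members came apart. Mutant male D6 had 66850 CPM of Gs2, 6975 of Eaat1, 3441 of nrv2, 2616 of alrm and 1865 of Gat with no repo read and 200 CPM of Tdc2. Mutant male D1 had a like set, with 89272 CPM of Gs2 and 11714 of Eaat1, and 690 CPM of repo. Wild-type female B1 had 54471 CPM of Gs2 and 7845 of nrv2 and no read of the other 5 in 966772 counts. By counting error alone that allows up to 3 counts of each. Only 763 genes had a read in B1, against a median of 5737 genes in wells below the repo level, so its zeros do not show that a gene was absent. Mutant male B34 had 86.1 CPM of repo and 3418 of nrv2 but 738 of Gs2 and no alrm. Mutant male D2 had 5223 CPM of Gs2, 1571 of Eaat1 and 2250 of Gat without a read of nrv2 or alrm. High Gs2 levels were thus found with or without reads of nrv2, repo or alrm.

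All 14 Tdc2-low wells held Gs2 and nrv2. Their lowest, median and highest levels were 738, 10801 and 70940 CPM for Gs2 and 155, 2252 and 7845 CPM for nrv2. Eaat1 and Gat were read in 13 each and alrm in 12, with medians of 561, 702 and 541 CPM. Of the 14 wells, 7 were repo wells and the other 7 held no repo read. They had a median of 3614 genes with a read, against 5765 in Tdc2-positive wells. A pair of them matched across genotypes: mutant male D10 and wild-type male D15, with Pearson's r of 0.99 between their log2 profiles, had 67311 and 70940 CPM of Gs2, 5400 and 5310 of Gat and 2069 and 1809 of nrv2. The repo wells mutant male B31 and wild-type male B35 formed another such pair (r 0.98), with 28.2 and 35.2 CPM of repo and 2689 and 2523 CPM of nrv2. Without all wells of such pairs, 14 repo wells remained and the log2 ratios ran from 3.84 for Gs2 to 5.43 for moody.

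In Tdc2-positive wells the members were spread by degrees. At 190000 reads, 33 wells had no read of any member, 48 had 1, 29 had 2, 15 had 3, 12 had 4, 15 had 5, 7 had 6 and 2 had all 7. No read of repo, alrm, Eaat1, moody or Gat was seen in 96 of them. Of those 96, 39 still had Gs2 (40.6%, interval 30.7 to 51.1), 42 had nrv2 (43.8%, 33.6 to 54.3) and 18 had both. Their highest levels were 369 CPM of Gs2 and 313 CPM of nrv2, and their summed levels 46.5 and 33.5 CPM. In the 65 wells with a read of the other 5, Gs2 was read in 89.2% (79.1 to 95.6) and nrv2 in 81.5% (70 to 90.1), at summed levels of 2648 and 515 CPM. Gs2 and nrv2 were therefore read at a low level in wells without the other members, and more often and far higher in wells with them.

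The proportion between Gs2 and nrv2 was not constant. The ratio of their summed CPM was 4.36 in repo wells, 9.79 in Tdc2-low wells without repo and 1.33 in the 92 unthinned Tdc2-positive wells with no read of the other 5. In Tdc2-positive wells below the repo level it was 6.35 at low, 1.55 at middle and 1.88 at high S numbers. The S number follows the letter S in each column's header, and the labels do not say what it marks. The numbers were divided into 3 stretches of 96, called low (1 to 96), middle and high here.

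Among the 24 further glial genes, 3 were read in at least 90% of Tdc2-positive wells, 2 in 50% to 90% and 19 in fewer. Over all listed genes 11.7% were read as widely, about the share that 3 of 24 makes. The widely read ones were Eaat2 (98.1%), Nrx-IV, a neurexin of septate junctions (91.3%), and drpr, the engulfment receptor Draper (90.7%). In repo wells these were not higher: the log2 ratio was -0.71 for Eaat2, -0.85 for Nrx-IV and -0.54 for drpr. At least 4-fold higher in repo wells were 13 of the 24, with a median log2 ratio of 2.75 over all 24, and none was 4-fold lower. The share of 2.63% over all genes holds for genes past 20 CPM, and of the 10 further glial genes past it 4 were 4-fold higher, with a median of 1.17. The 13 included the FGF receptor gene htl (6.89), the cytochrome P450 gene Cyp4g15 (5.90), the ETS factor gene pnt (4.48) and zyd (3.87). Also among them were vkg, a collagen IV gene of the perineurial sheath (3.71), and wrapper of cortex glia (3.66). Of the genes named here only Cyp4g15 passed 20 CPM, and 1 well held 63.1% of htl reads and 1 well 71.4% of pnt reads. All 4 genes listed for astrocyte-like glia, all 3 for cortex glia and all 4 for glial metabolism and junctions were among the 13, but 1 of 7 for the blood-brain barrier, 1 of 4 for glial fate and 0 of 2 for ensheathing glia. The glial switch gene gcm and the septate junction gene Gli were at 0 in repo wells.

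Some genes of other cell types were also higher in repo wells, and 2.63% of all genes past 20 CPM were 4-fold higher. Both cholinergic genes, ChAT and VAChT, were at least 4-fold higher, at 190 against 14.9 CPM and 296 against 13.2 CPM. The same held for 3 of 5 photoreceptor genes (Arr1, Arr2 and ninaC), with trp at 0, for 3 of 4 fat body genes (apolpp, Lsp2 and Yp1), with Fbp1 at 0, and for 1 of 2 GABAergic genes. Of 4 dopamine and serotonin genes 2 were, and of 3 muscle genes 1 was. Of 4 blood cell genes none was, and Hml and NimC1 were at 0. None of 5 general neuronal genes, of 3 trachea genes or of the vesicular glutamate transporter gene VGlut (log2 ratio -0.44) was, and the trachea gene trh was lower (-3.60), at 1.65 against 31.2 CPM. Summed over the list, cholinergic genes were at 0 to 1403 CPM with a median of 29.7 CPM in repo wells, and at 0 to 2240 CPM with a median of 0 elsewhere. Fat body genes were at 0 to 1321 CPM with a median of 43.8 CPM, against 0 to 693 CPM with a median of 0.33 CPM. The part of such reads in the glial levels was not tested.

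Across the wells of no near-identical pair (48 of mutant females, 47 of wild-type females, 38 of mutant males and 28 of wild-type males), the members' log2 levels moved together to unequal degrees. Pearson's r was 0.80 between Eaat1 and Gat, 0.72 between Gs2 and Eaat1 and between Gs2 and Gat, 0.69 between alrm and Gat, and 0.61 between repo and Eaat1. For moody it ran from 0.25 to 0.44. Against Tdc2 it was below 0 for all 7, from -0.39 for moody to -0.62 for Gat. These wells share depth differences and many zeros, so the values describe the wells only. They include Tdc2-low wells with high levels of most members, and no r without those wells is given. Among 5584 genes the closest to each member were Cyp4g15 for repo (0.72), CG4409 for alrm (0.69) and nrv2 (0.67), Msr-110 for Gs2 (0.74), Gat for Eaat1, Eaat1 for Gat, and Galphai for moody (0.44). The adjacent genes Adh and Adhr came next for both Gs2 (0.73 each) and nrv2 (0.66 each).

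Repo wells were more frequent among males. Of 91 male wells 12 were repo wells (13.2%, interval 7.0 to 21.9), and of 98 female wells 4 were (4.08%, 1.12 to 10.1). By group there was 1 of 50 in mutant females, 3 of 48 in wild-type females, 6 of 49 in mutant males and 6 of 42 in wild-type males. The intervals of the sexes overlapped. High Gs2 had a wider gap, with at least 1000 CPM in 22 of 91 male wells (24.2%, 15.8 to 34.3) and 5 of 98 female wells (5.10%, 1.68 to 11.5).

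Sex and header S number split the wells almost alike. Mutant females had only high S numbers, males only low and middle ones, and wild-type females 8 wells at low, 1 well at middle and 39 wells at high S numbers. Repo wells numbered 9 of 56 at low, 6 of 44 at middle and 1 of 89 at high S numbers. At low S numbers, where both sexes were present, 2 of 8 female wells (25%, 3.19 to 65.1) and 7 of 48 male wells (14.6%, 6.07 to 27.8) were repo wells, and 4 of 8 and 14 of 48 had at least 1000 CPM of Gs2. Those 4 female wells, B1, B4, D1 and D2, were Tdc2-low and included both female repo wells, while 0 of the 48 male wells were Tdc2-low. No Tdc2-positive female well at low S numbers was thus of either kind. At middle S numbers the 5 male repo wells were all Tdc2-low. Of the 39 wild-type female wells at high S numbers, 0 were repo wells and 0 had at least 1000 CPM of Gs2, although 6 held a repo read below 10 CPM. The sexes and the S numbers cannot be told apart from these wells.

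The title letter, B or D, moved with the members too. Repo wells were 8 of 32 wells with the letter D (25%, 11.5 to 43.4) and 8 of those with B (5.10%, 2.23 to 9.79), a letter that 46, 43, 39 and 29 wells carried in the order of groups above. At least 1000 CPM of Gs2 was found in 18 of 32 D wells (56.3%, 37.7 to 73.6) and 9 B wells (5.73%, 2.65 to 10.6). In mutant males it was 9 of 10 D wells. By S number, repo wells were 6 of 14 D and 3 of 42 B wells at low, 2 of 11 D and 4 of 33 B wells at middle, and 0 of 7 D and 1 of 82 B wells at high S numbers. Wells with 1000 CPM of Gs2 were 13 of 14 D and 5 of 42 B wells, 5 of 11 and 3 of 33, and 0 of 7 and 1 of 82 in the same order. At high S numbers no D well was either kind, and the B and D intervals of repo wells overlapped within each stretch. The labels do not explain the letter, and males had 23 of the 32 D wells.

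**Figure D3:**
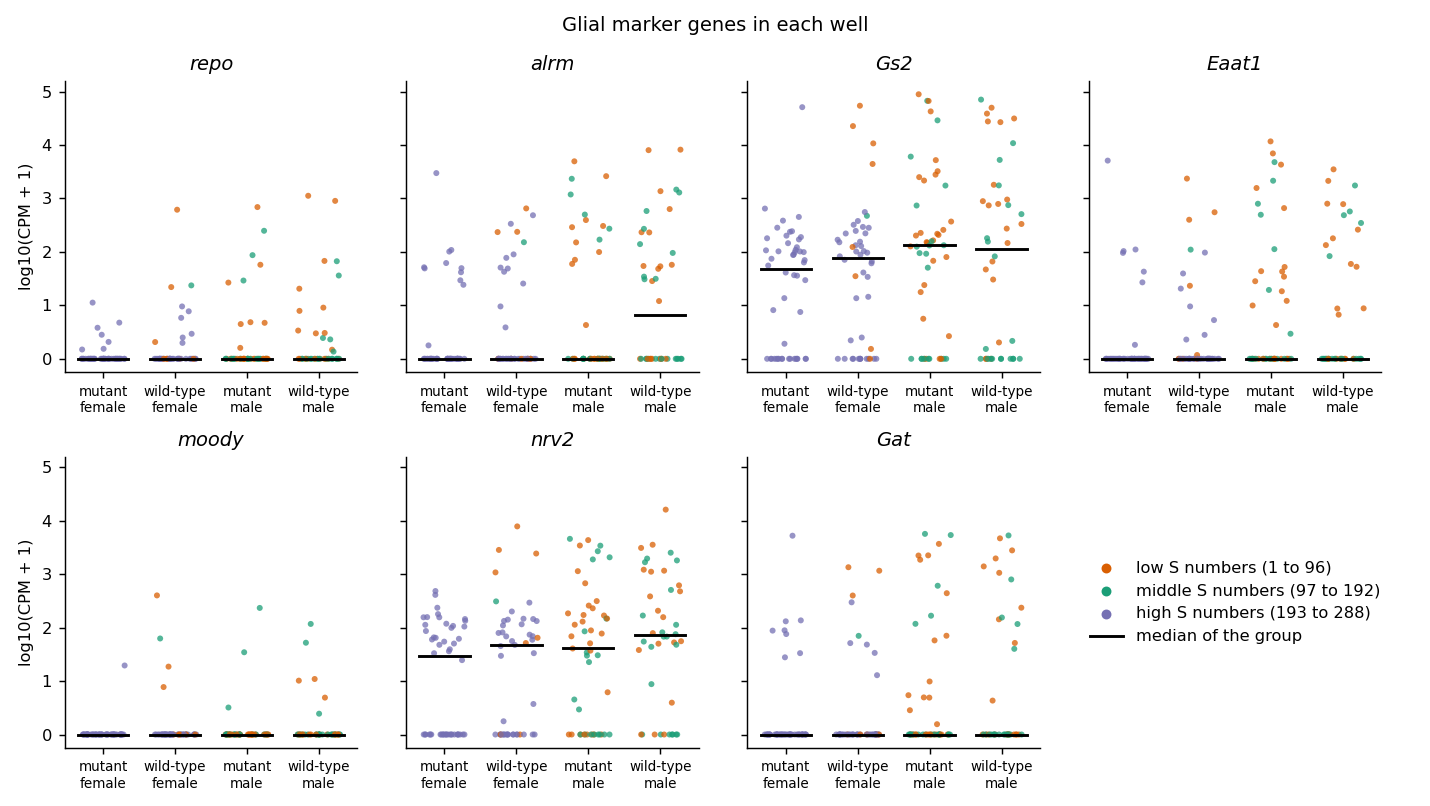
Level of each member in each well, as log10(CPM + 1), by group and coloured by header S number, with the group's median as a black line. For repo, Eaat1, moody and Gat every group's median is 0, Gs2 and nrv2 have medians above 0 in all 4 groups, and at high S numbers all wells except mutant female B18 lie below 1000 CPM for each member.

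Within males, where sex is constant, shares of several members were lower at middle than at low S numbers. At 190000 reads Eaat1 was read in 50% of Tdc2-positive mutant male wells at low S numbers and 6.25% at middle ones, and in 63.2% and 5.56% of wild-type male wells. Gat was read in 38.5% and 0% in mutants and in 42.1% and 5.56% in the wild type. Gs2 stood at 76.9% and 43.8%, and at 78.9% and 27.8%. For alrm the shares were 34.6% and 6.25%, and 57.9% and 27.8%. For nrv2 they were 69.2% and 37.5%, and 84.2% and 61.1%. The intervals of low and middle S numbers overlapped for every member in mutants, and in the wild type for all but repo, Gs2 and Eaat1. The gap was narrow for Gs2 (54.4 to 93.9 against 9.69 to 53.5) and repo (20.3 to 66.5 against 0 to 18.5). No share of all genes with such gaps is given, so nothing is drawn from this count. In point values 5 of 7 members (alrm, Gs2, Eaat1, nrv2 and Gat) were higher at low S numbers by at least 20 percentage points in both genotypes, a size set after the values were seen, as were 74 of 5585 genes (1.32%). Shares of repo were 15.4% and 0% in mutants and 42.1% and 0% in the wild type. The genotypes were not separate observations here, since 6 of the 16 mutant and 6 of the 18 wild-type wells at middle S numbers were near-identical partners across genotypes. Without all wells of pairs, 7 mutant and 8 wild-type wells remained at middle S numbers, 3 of 7 members (Gs2, Eaat1 and Gat) kept the 20 points in both genotypes, against 1.11% of all genes, and the intervals overlapped for every member. In these wells nrv2 was read in 83.3% at low and 87.5% at middle S numbers in the wild type. The relatives Gs1 and nrv3 were at 100% throughout. Median genes per well at 190000 reads were 5038 and 5372 in mutant males and 5265 and 5478 in wild-type males, so fewer genes were read at low S numbers. Depth was equal by thinning, and no cause of the difference was tested.

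**Figure D4:**
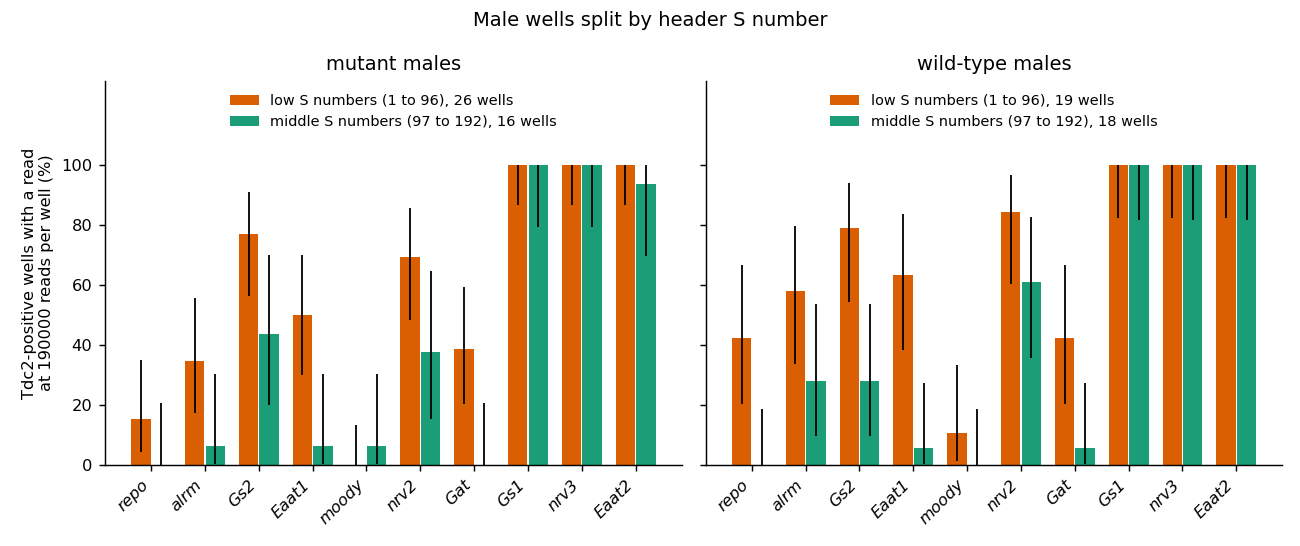
Share of Tdc2-positive male wells with a read of each gene at 190000 reads per well, split by header S number, with exact binomial intervals as lines, for mutant males (26 and 16 wells) and wild-type males (19 and 18 wells). The members except moody are lower at middle S numbers in both panels, while Gs1 and nrv3 stand at 100% in all 4 sets of wells. At middle S numbers 6 wells of each panel are near-identical across genotypes.

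Between the sexes, 1 of 7 members was at least 2-fold higher in males in both genotypes, which held for 1.09% of the 5585 genes. It was alrm, summed to 151.9 CPM (interval 148.5 to 155.4) in males and 44.9 CPM (42.8 to 47.1) in females of the mutant, and to 164.3 CPM (160.6 to 168.1) in males and 54.7 CPM (52.6 to 56.8) in females of the wild type. The log2 ratio of male over female was 1.74 in mutants and 1.57 in the wild type. Its median was 0 in 3 groups and 5.52 CPM in wild-type males, so the wells of the groups overlapped. For all 7 members the ratio in mutants was above 0, from 0.96 for moody to 3.44 for repo. In the wild type it was 0.90 for repo, 0.81 for nrv2, 0.65 for Eaat1, 0.30 for Gat, -0.21 for Gs2 and -1.11 for moody. Among wild-type wells at low S numbers the ratio for alrm was 1.38, and it was 0.13 for repo, -0.18 for nrv2, -0.40 for Eaat1, -0.59 for Gat, -1.36 for Gs2 and -3.81 for moody. Of these wells 4 of the 8 female ones and 0 of the male ones were Tdc2-low, and no ratio without the Tdc2-low wells is given for this stretch. Over Tdc2-positive wells alone, 6 of 7 members were at least 2-fold higher in males in both genotypes, and over wells below the repo level 0 of 7 were. The 1.09% holds for all wells, and no share of all genes is given for these subsets, so their counts cannot be set against it. With title letter B alone alrm fell short, at 0.10 in mutants and 0.67 in the wild type.

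Between genotypes, repo and nrv2 were at least 2-fold lower in mutants in both sexes, 2 of 7 members, against 0.358% of the 5585 genes. Of these, repo lay below the mean of 20 CPM that those genes passed. In females the summed level of nrv2 was 57.1 CPM (54.7 to 59.6) for mutants against 357 CPM (352 to 363) for the wild type, a log2 ratio of -2.62. In males it was 291 CPM (286.3 to 295.8) for mutants against 625 CPM (618 to 633) for the wild type, a ratio of -1.10. Per well the lowest value was 0 in each group. The median and highest were 27.9 and 483 CPM for mutant females, 45.3 and 7845 CPM for wild-type females, 39.7 and 4588 CPM for mutant males, and 70.7 and 16168 CPM for wild-type males. All groups reached down to 0, the medians lay between 27.9 and 70.7 CPM, and no mutant female well passed 483 CPM. Without all wells of near-identical pairs the ratios were -2.64 and -1.41. Without the well with most nrv2 reads in each group the ratios were -1.93 and -0.38, and over Tdc2-positive wells alone 0.21 and -1.52. At high S numbers the female ratio was 0.27, and in males it was -1.81 at low and 0.17 at middle S numbers.

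For repo the sums were 0.29 CPM (0.14 to 0.52) against 16.3 CPM (15.2 to 17.4) in mutant and wild-type females, and 12.97 CPM (11.98 to 14.02) against 31.2 CPM (29.6 to 32.9) in mutant and wild-type males, with log2 ratios of -3.74 and -1.21. The single well D1 held 92.3% of the repo reads of wild-type females. Without near-identical wells the values became -3.75 and -1.44. With each group's top well left out the ratios were -0.96 and -0.88, both short of 2-fold. By S number, the female ratio of repo was -0.19 at high ones. In males it was -1.75 at low S numbers but 1.01 at middle ones, where the sums were 5.25 CPM for mutants and 2.10 CPM for the wild type. Neither without the top wells nor over Tdc2-positive wells alone did any member differ 2-fold in 1 direction in both sexes (0 of 7).

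The sums of the other members rested on few wells as well. In mutant females 1 Tdc2-low well, B18, held 89.1% of Gs2, 93.8% of Eaat1, 91.9% of Gat and 81.5% of alrm reads. In the order mutant females, wild-type females, mutant males and wild-type males, Gs2 summed to 703, 2144, 2524 and 1858 CPM, and without the top wells to 77.4, 1099, 1423 and 1331 CPM. Eaat1 sums were 66.8, 86.5, 309 and 136.3 CPM in the same order, Gat 69.96, 87.2, 147.2 and 107.7 CPM, and moody 0.59, 11.6, 2.09 and 4.80 CPM. Fewer wells with glial RNA and less glial RNA per well cannot be told apart in such sums. The share of Tdc2-positive wells with a read, which a single well moves little, had overlapping intervals between genotypes in both sexes for each member. No share of all genes with such overlap is given, and near-identical profiles count in both genotypes, so nothing is drawn from the overlap. The share was 61.4%, 60.5%, 64.3% and 54.1% for Gs2 in the order above, and 52.3%, 55.3%, 57.1% and 73% for nrv2.

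**Figure D5:**
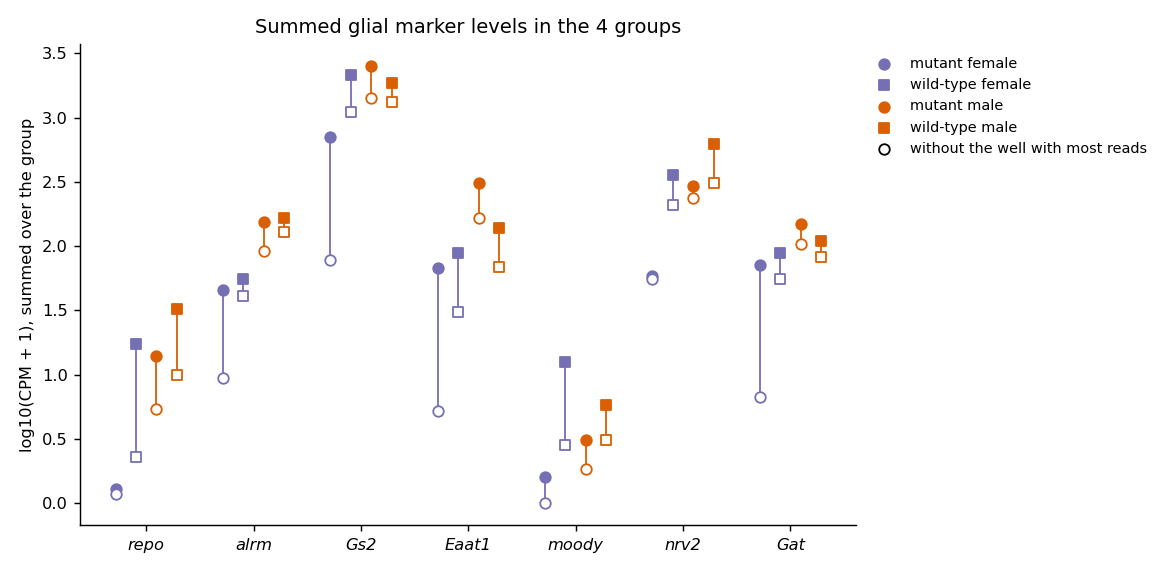
Summed level of each member in the 4 groups, as log10(CPM + 1), over all wells (filled) and without the well with most reads of that member (open). The widest gap is that of Eaat1 in mutant females, where 93.8% of reads came from 1 well, and nrv2 in mutant females hardly moves.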

How the data were processed

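The deposited table gave, per the file headers, reads over exons of 1 RefSeq transcript per gene on dm6, counted by HOMER without normalization. The deposited values were multiples of 0.5, 56.2% of those above 0 whole, and were treated the way expected counts are, although whole counts had been planned for. Per the submitters' processing notes, FastQC, HOMER and edgeR were used. The aligner and the use of strand are not given in the sources used here. Reads were paired, 75 bases long, per the labels' protocols.

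Cells with fewer than 10000 counts or 500 genes were left out. Columns with Pearson's r of at least 0.95 over 7500 genes were called near-identical, and averaged when of 1 group. For shares of wells, values were rounded and each well was thinned once to 190000 reads, and shallower wells were left out. Summed counts were divided by the sum over listed genes (CPM), and log2 ratios used a pseudocount of 1 CPM, which understates the change of low genes. Poisson and Clopper-Pearson intervals were exact. Reads without molecular identifiers are not independent molecules. The steps were tested on simulated data. No doublet caller was run.

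The members, the gene lists, the levels of 10 CPM of repo and 100 CPM of Tdc2 and the comparisons were chosen with earlier results of these data known. Named genes were the members, the listed markers and relatives, and for each member the 3 genes with the highest correlation over wells of no near-identical pair. Alternatives were other thinning, other repo and Tdc2 levels, mean per-well CPM, a pseudocount of 5 CPM, edgeR's TMM scaling, no filter, and leaving out top wells, repo wells, Tdc2-low wells or near-identical columns. Restriction to title letter B, and to S numbers 1 to 96 for the repo ratios, and the male shares without near-identical columns were added after seeing the data. Python 3.11.15, numpy 2.4.6, pandas 2.3.3, scipy 1.17.1, R 4.3.3 and edgeR 4.0.16 were used.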

Additional observations from a re-analysis of the deposited data

Results flagged for a closer look

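Some ratios had opposite signs in the groups compared, and with 1 sample a group the differences were not tested. Mutant over wild type, the log2 ratio of Gs2 was -1.61 among females but 0.44 among males, that of Eaat1 -0.37 and 1.18, and that of Gat -0.31 and 0.45. Male over female, the log2 ratio of Gs2 was -0.21 for the wild type but 1.84 for mutants, and that of moody -1.11 and 0.96. Several of these signs turned. Among females, Eaat1 by genotype was 0.54 with mean per-well CPM, 2.10 under 10 CPM of repo, 1.03 with no filter and 1.89 with letter B alone, and Gat was 0.70, 0.58 and 1.85 with the first, second and last of these. Mutant females had only high S numbers. At these, the female ratio by genotype was 2.58 for Gs2, 4.67 for Eaat1 and 2.41 for Gat. Well B18 held 89.1%, 93.8% and 91.9% of the mutant reads of these genes. Among males, Gs2 by genotype was -0.019 under 10 CPM of repo and -1.09 with letter B, Gat -0.16 and -0.36, and Eaat1 -0.35 with letter B. In males Gs2 was also -0.033 at middle S numbers, and Gat -0.15 at low ones. By sex in the wild type, Gs2 was 1.68 with mean per-well CPM, 0.28 without top wells, 3.79 in Tdc2-positive wells and 0.08 without near-identical columns, and moody was 0.11 without top wells, 1.85 under 10 CPM of repo and 1.21 with letter B. By sex in mutants, Gs2 was -1.36 with letter B, and moody was -0.56 in Tdc2-positive wells and -0.55 under 10 CPM of repo.

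Columns left out for low depth or few genes also held reads of members above the 3 counts that a count of 0 allows. Mutant female B28 held 537 counts of Gs2, 66.5 of Gat, 59 of Eaat1 and 35 of alrm. Mutant female B44 held 8913.5 counts of Gs2 and 4296.5 of Eaat1 over 413 genes. Wild-type female B40 held 4960 counts of Gs2 and no read of the other members over 415 genes. Mutant male B6 held 73 counts of nrv2, 68.5 of Gs2, 32.5 of Eaat1 and 15 of alrm, and mutant male B1 held 9 of Gs2 and 7 of Gat. None of these 5 columns held a Tdc2 read.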

How the results depend on the processing

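That 0 of 7 members reached 90% of Tdc2-positive wells held in all alternatives run, and the 4-fold count in repo wells was 5 or 6 of 6. The share of male repo wells (13.2%) became 27.5% with any repo read, 8.54% in Tdc2-positive wells and 7.35% with title letter B alone. The female share (4.08%) became 17.3% with any read, 11.5% with any read after thinning, 1.02% at 50 CPM of repo, 2.15% in Tdc2-positive wells and 25% at S numbers 1 to 96. The count of members that differed 2-fold by genotype (2, repo and nrv2, both lower in mutants) was 0 without top wells, in Tdc2-positive wells and with title letter B alone. It was 1 with mean per-well CPM (repo, lower) and in wells under 10 CPM of repo (Eaat1, higher), and 4 with no filter (repo, moody and nrv2 lower, Eaat1 higher). The count by sex (1, alrm) was, always higher in males, 6 with mean per-well CPM and in Tdc2-positive wells, 4 without near-identical columns and 3 without top wells. It was 0 under 10 CPM of repo, and 2 with letter B alone, which were repo, higher in males, and Gs2, lower in males, but not alrm. For the counts by genotype and by sex, shares of all genes are given for the main setting only. The count of members higher at low S numbers in males (5) was 3 without near-identical columns. Causes were not tested.

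Some log2 ratios of at least 2-fold changed sign. Under 10 CPM of repo, moody by genotype in females was 0.18, and by sex moody was 1.85 in the wild type, and repo -0.021 and Gat -0.62 in mutants. In Tdc2-positive wells nrv2 by genotype in females was 0.21. At high S numbers, by genotype in females, Gs2 was 2.58, moody 0.67 and nrv2 0.27. At middle S numbers, by genotype in males, repo was 1.01 and nrv2 0.17. Without top wells moody by sex in the wild type was 0.11. With letter B alone, Eaat1 by genotype in males was -0.35, moody by sex in the wild type 1.21, and by sex in mutants Gs2 was -1.36, Eaat1 -0.78 and Gat -1.77. No paired analysis was possible because each group was 1 sample, and the numbers in the titles name wells. Depth limits the shares: at 190000 reads a gene near 1 read a well is often missed.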
